A study of Mus musculus with 6 samples.

Results

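Genes for the pores and helper subunits of sodium, calcium, chloride, pacemaker and TRP channels were followed in hearts of control and Elac2 knockout mice. The genes were chosen by name, as protein-coding rows whose symbols begin with Scn followed by a number and a or b, Cacna, Cacnb, Cacng, Clcn, Hcn, Trpa, Trpc, Trpm or Trpv. The name rule found 77 of 22012 protein-coding rows, and 47 of them had at least 30 counts summed over the 6 libraries. Of the other 30 genes, 20 had some reads and 10 had none. The rule also takes in Trpc4ap, which encodes a TRPC4-associated protein, and Trpc5os, a transcript opposite Trpc5, and neither encodes a channel.

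The study compared hearts of 3 control mice with hearts of 3 knockout mice by RNA sequencing. Controls are labelled L/L and Elac2 +/+. Knockouts are labelled L/L, cre and Elac2 -/-, and in them a loxP-flanked exon of Elac2 was removed by cre made from the muscle creatine kinase promoter. All mice were on a C57BL/6 background, and age and sex are not given in the sources used here. The promoter acts in striated muscle cells, so other cells of the heart were not its target, and only the knockouts carry cre. RNA came from the total heart, so fewer cells of a type and less RNA per cell cannot be told apart in any value below. Each library is 1 mouse, so p-values weigh the difference between groups against variation between mice, with 3 mice in each group. In the test of each gene that variation is estimated partly from other genes. Elac2 encodes RNase Z, which trims the 3' ends of tRNA precursors. Its level was 15.05, 14.00 and 13.01 CPM in the controls and 5.36, 5.63 and 6.52 CPM in the knockouts, and the groups did not overlap (log2 fold change -1.27, SE 0.15, adjusted p = 2.12e-04). CPM are counts per 1000000, here with library sizes scaled by TMM, edgeR's correction for composition.

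Voltage-gated sodium channels carry the fast inward current that starts the action potential of working heart muscle, and L-type calcium channels then admit the calcium that triggers contraction. Each has a pore-forming subunit, called alpha in sodium channels and alpha1 in calcium channels, with helper subunits that set its gating and its passage to the membrane. Hcn channels open on hyperpolarisation and bind cyclic AMP, and are known for the pacemaker current of the sinoatrial node. Clcn genes encode chloride channels of the cell surface and chloride-proton exchangers of endosomes and lysosomes, and TRP genes encode cation channels with many stimuli. Scn4a and Clcn1 are best known from skeletal muscle.

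The channel genes that were called fell more often than they rose. Of the 47 genes, 42 passed the filter on low counts, and 3 of these were higher and 18 lower in the knockouts, while 21 were not called. A gene was called at an adjusted p under 0.05. Among all 14302 genes tested 36.5% were called, 18.7% higher and 17.8% lower, against 7.14% higher and 42.9% lower among the 42 genes. The 42 include Trpc4ap, and the 41 channel genes without it had 7.32% higher and 43.9% lower. The median log2 fold change of the 42 genes was -0.48 and that of all genes -0.01, or 0.21 and 0.68 with library size alone. Library size alone leaves out the correction for composition, and mitochondrial-encoded features took 49.3 to 61.1% of counts in controls and 33.3 to 36.7% in knockouts. With that scaling 14 of the 42 genes, Trpc4ap among them, were called higher and 6 lower, against 56.6% higher and 3.86% lower of all genes. Directions below are therefore relative to the bulk of genes. The groups did not overlap in CPM for 27 of the 42 genes, 7 higher and 20 lower, against 50.6% of all genes tested, 26.2% higher and 24.5% lower. Since a gene can pass the filter through the group where it is high, these counts describe the genes that passed and not the whole family. By the authors' own deposited table, 3 of the 47 genes were higher and 17 lower, against 14.5% and 13.1% of its genes, and all 20 had the direction found here.

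**Figure D1:**
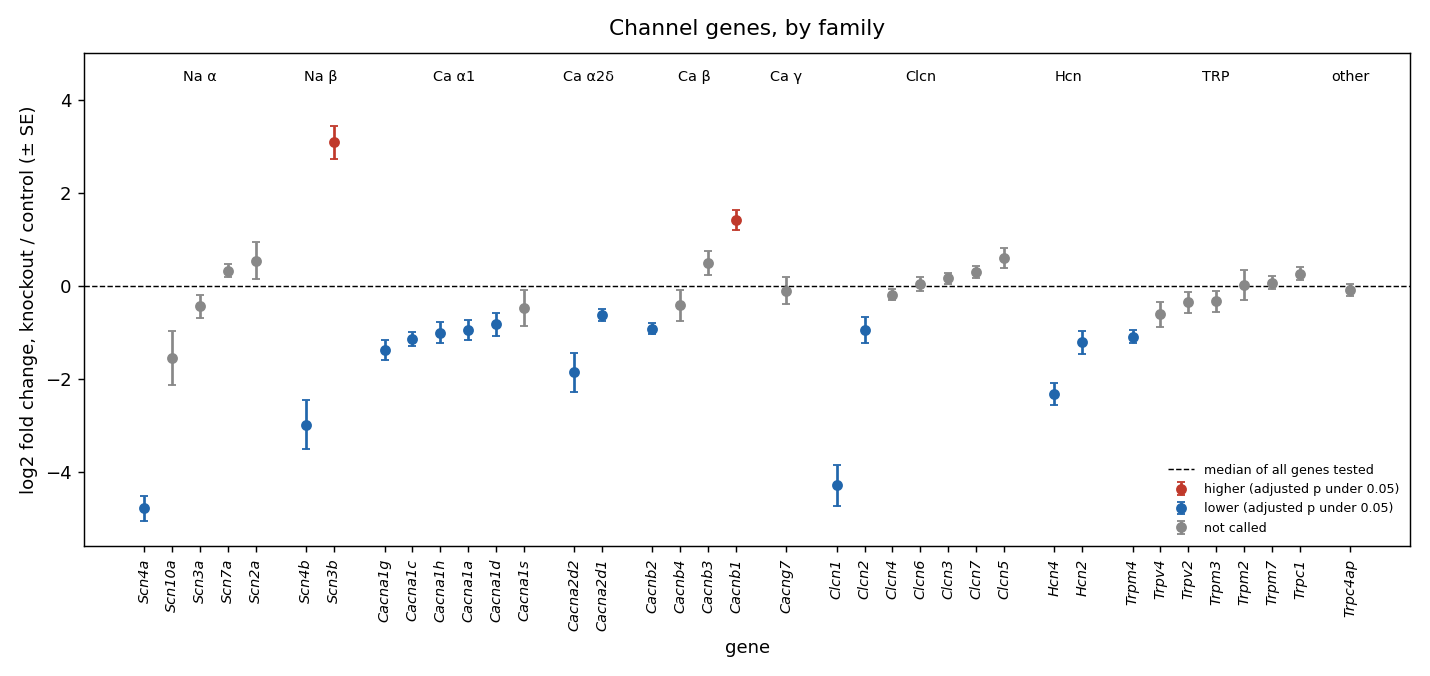
Log2 fold change, knockout against control, of the channel genes described and of Trpc4ap, grouped by family. Points are fitted values, bars are SE, colours give the call at an adjusted p under 0.05, and the dashed line is the median of all genes tested (-0.01). Scn4a (-4.79) and Clcn1 (-4.29) lie lowest and Scn3b (3.08) lies highest.

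The 4 largest falls were in Scn4a, Clcn1, Scn4b and Hcn4. The 250 bases before the RefSeq start of these genes (GRCm38.p6, the build of mm10) are shown because these genes fell most. They are written 5' to 3' on the gene's strand, and capitals mark a match to any of 6 motifs.
Scn4a (chr11:106349391-106349640, minus strand): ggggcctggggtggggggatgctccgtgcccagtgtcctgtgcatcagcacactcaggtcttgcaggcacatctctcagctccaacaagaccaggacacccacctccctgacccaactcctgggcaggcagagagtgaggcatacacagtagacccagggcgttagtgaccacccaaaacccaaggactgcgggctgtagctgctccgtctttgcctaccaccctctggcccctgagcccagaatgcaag
Clcn1 (chr6:42286435-42286684, plus strand): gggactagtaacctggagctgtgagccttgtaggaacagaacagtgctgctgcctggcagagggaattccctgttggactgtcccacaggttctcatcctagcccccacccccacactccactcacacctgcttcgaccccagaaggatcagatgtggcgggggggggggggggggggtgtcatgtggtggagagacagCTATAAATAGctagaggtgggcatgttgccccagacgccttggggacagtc
Scn4b (chr9:45138374-45138623, plus strand): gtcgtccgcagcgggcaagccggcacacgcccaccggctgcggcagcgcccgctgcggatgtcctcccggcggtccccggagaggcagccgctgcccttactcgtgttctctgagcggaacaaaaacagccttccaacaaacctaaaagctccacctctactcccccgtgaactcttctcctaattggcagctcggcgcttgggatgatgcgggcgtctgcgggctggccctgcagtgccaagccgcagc
Hcn4 (chr9:58822699-58822948, plus strand): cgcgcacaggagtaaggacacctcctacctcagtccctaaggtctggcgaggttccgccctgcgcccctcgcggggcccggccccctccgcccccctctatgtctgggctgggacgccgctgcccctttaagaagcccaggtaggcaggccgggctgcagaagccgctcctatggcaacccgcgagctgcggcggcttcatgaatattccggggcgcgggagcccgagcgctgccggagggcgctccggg
The motifs were the E-box CAGCTG, the M-CAT element CATTCC, the Nkx2-5 element TNAAGTG, the GATA element AGATAA, the TATA box TATAAA and the MEF2 consensus, each searched on both strands. In these windows matches to the MEF2 consensus and the TATA box, which overlap each other, were found in Clcn1, 51 and 50 bases before the start. Of 32851 RefSeq promoter windows of the same length, 2.92% held a MEF2 match and 12.4% a TATA box. The other motifs were in 13% (E-box), 12.6% (M-CAT), 10.1% (Nkx2-5) and 9.99% (GATA) of windows. The windows of Scn4a, Scn4b and Hcn4 held none of these letters. A match is a description of the sequence and not a site of binding. For Scn4a, Scn4b and Hcn4 the RefSeq start differs from the start of the GENCODE gene, and the windows of Scn4a and most of that of Scn4b lie inside the annotated gene. The promoter table held 60 of the 77 genes, with 11 of the 18 lower genes and 1 of the 3 higher genes.

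Of the sodium channel alpha subunit genes described here, Scn4a of skeletal muscle fell. Scn4a (ENSMUSG00000001027.7, chromosome 11, 106318592 to 106353288 in mm10, minus strand) was covered by 144, 148 and 129 reads in the controls and by 9, 7 and 8 in the knockouts. Its level was 10.8, 16.4 and 15.0 CPM in the controls and 0.478, 0.406 and 0.644 CPM in the knockouts, so each knockout library lay far below each control. The ratio of mean CPM was 27.7, control over knockout, and the log2 fold change -4.79 (SE 0.27, adjusted p = 3.78e-06). The alpha subunit genes Scn7a, Scn2a, Scn3a and Scn10a were not called. Scn7a, which encodes a sodium-sensing relative of these channels, was at 38.5, 43.0 and 34.3 CPM in controls and 41.9, 48.9 and 54.4 CPM in knockouts. Its groups overlapped (log2 fold change 0.33, adjusted p = 0.0833), and it was called higher without knockout 1 (0.42, adjusted p = 0.0181) and with no filter (0.37, adjusted p = 0.0474). The neuronal genes Scn2a and Scn3a had 0.54, with groups that did not overlap, and -0.44, which was 0.26 under library size alone. Scn10a, of sensory neurons, had 1.05, 1.0 and 1.39 CPM in controls and 0.106, 0.290 and 0.886 CPM in knockouts (log2 fold change -1.55, adjusted p = 0.0595). Its groups did not overlap, and it was called without knockout 3 (-2.49, adjusted p = 0.0065).

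Levels of alpha subunit genes were compared as CPM per kilobase of exon. In controls Scn7a was at 5.26 ± 0.596, Scn4a at 2.001 ± 0.414, Scn3a at 0.331 ± 0.0533, Scn10a at 0.144 ± 0.0268 and Scn2a at 0.0534 ± 0.0012 (SD, n = 3 each). No neighbours in that order had overlapping SDs, but Scn10a had 14, 9 and 12 reads in controls and Scn2a 9, 6 and 6. An SD from so few reads is a poor measure of the spread between mice. In knockouts Scn7a was at 6.60 ± 0.858. Scn4a, at 0.0723 ± 0.0173 CPM per kilobase, then lay beside Scn2a at 0.0807 ± 0.0342 and Scn10a at 0.0536 ± 0.0511, and these 3 did not differ beyond their spread. As a share of all alpha subunit counts per kilobase within a library, which does not depend on scaling between libraries, Scn4a made up 5.19, 6.53 and 5.69% in controls and 0.237, 0.247 and 0.382% in knockouts. A two-sided exact permutation test gave p = 0.1, which groups of 3 cannot go below, and 0.167 after adjustment over the 5 shares tested.

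Markers of skeletal muscle were set beside Scn4a and Clcn1, since both are known from that tissue. Of 15 skeletal muscle markers found, 12 were under 1 CPM in every control library, and Myh1, Myh2, Myh4, Tnnc2, Pvalb and Chrna1 reached at most 0.174 CPM in any library. The summed level of that list was 56.1 to 82.8 CPM in controls and 68.0 to 93.9 CPM in knockouts. Myl1, Mybpc2 and Casq1 made up most of it, with 1 of these higher and 1 lower, against 18.7% and 17.8% of all genes. The part of such cells in the values of Scn4a and Clcn1 was not tested.

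Helper subunits of sodium channels went both ways, and their mixture differed between the groups. Beta subunits are small membrane proteins with an immunoglobulin-like domain that modulate gating and cell adhesion. Scn4b, whose product binds alpha subunits through a disulfide bond, was at 2.26, 4.22 and 5.46 CPM in controls and 0.106, 0.755 and 0.644 CPM in knockouts. The groups did not overlap, and Scn4b fell by 2.99 (SE 0.53, adjusted p = 1.96e-03). Scn3b, a beta subunit gene expressed in brain and heart, was at 1.66, 0.667 and 0.581 CPM in controls and 9.92, 9.99 and 6.52 CPM in knockouts. It rose by 3.08 (SE 0.34, adjusted p = 1.62e-04), with knockout levels 9.11 times the control mean. Scn2b had 59 counts in all and did not pass the filter, with 0.746 ± 0.268 CPM in controls and 0.761 ± 0.22 CPM in knockouts. In the shares of beta subunit counts per kilobase, Scn4b took 27.3 ± 6.41% in controls and 1.57 ± 1.08% in knockouts, and Scn3b took 6.95 ± 5.69% and 25.1 ± 3.79% (SD, n = 3 each). These 2 shares were chosen after their values were seen and were not tested.

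Genes for proteins that bind or anchor sodium channels were counted from a list. Of 16 tested, 6 were lower, 2 higher and 8 not called, with a median of -0.21, against 17.8% lower and 18.7% higher of all genes. Ank2, the ankyrin that places ion transporters in the cardiomyocyte membrane, fell by 1.18 (SE 0.13, adjusted p = 1.48e-04). Fgf14, an intracellular fibroblast growth factor homologue that binds sodium channel tails, fell by 1.49 (SE 0.27, adjusted p = 2.13e-03). Pkp2, a desmosome plaque protein, rose by 0.77 (SE 0.13, adjusted p = 1.25e-03).

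Calcium channel genes fell for most members tested. Of 13 tested, 8 were lower, 1 higher and 4 not called, against 17.8% lower and 18.7% higher of all genes. The 13 values had a median of -0.83, where all genes had -0.01. Scaled by library size alone, these medians became -0.13 and 0.68. That scaling called 2 of the 13 lower and 2 higher, against 3.86% lower and 56.6% higher of all genes. The L-type pore gene Cacna1c (ENSMUSG00000051331.15, chromosome 6, 118587240 to 119196418, minus strand) was at 309, 397 and 359 CPM in controls and at 149, 144 and 190 CPM in knockouts. The groups were well apart, and Cacna1c fell by 1.15 (SE 0.15, adjusted p = 4.58e-04), but was not called with library size alone (-0.43, adjusted p = 0.0801). The T-type pore genes, whose channels open at low voltage, fell as well. Cacna1g was at 25.8, 28.7 and 22.5 CPM in controls and 13.6, 7.55 and 8.21 CPM in knockouts. It fell by 1.38 (SE 0.22, adjusted p = 1.08e-03), and its call was kept with library size alone (-0.68, adjusted p = 0.0163). Cacna1h was at 15.1, 10.4 and 15.7 CPM in controls and 5.31, 6.68 and 8.78 CPM in knockouts, a fall of 1.01 (SE 0.22, adjusted p = 5.83e-03) that was not called with library size alone (-0.32, adjusted p = 0.258). Control 2 was the lowest control, still above knockout 3.

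Among the other alpha1 genes, Cacna1a, of the neuronal P/Q-type channel, fell by 0.95 (SE 0.22, adjusted p = 7.39e-03). Cacna1d, the L-type gene of atrial and nodal cells, fell by 0.83 (SE 0.25, adjusted p = 0.0244), and was not called when control 1, control 3 or knockout 2 was left out (adjusted p = 0.055, 0.0968 and 0.0939). With library size alone neither was called (Cacna1a -0.25, adjusted p = 0.45, and Cacna1d -0.13, adjusted p = 0.687). The skeletal muscle gene Cacna1s was not called (-0.48, adjusted p = 0.361, and 0.23 under library size alone), and 20% of its exon bases overlap an antisense gene. Cacna1e had 33 counts and was not tested. The mixture of pores overlapped between the groups, as Cacna1c took 76.0 ± 2.52% of alpha1 counts per kilobase in controls and 75.2 ± 1.95% in knockouts. Cacna1g took 11.5 ± 1.47% and 9.78 ± 3.83% (exact permutation p = 0.5) and Cacna1h 6.49 ± 1.77% and 7.0 ± 1.12% (exact permutation p = 0.7, n = 3 each). With adjustment over the 5 shares these were 0.625 and 0.7, and groups of 3 cannot pass the threshold at any size of difference.

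**Figure D2:**
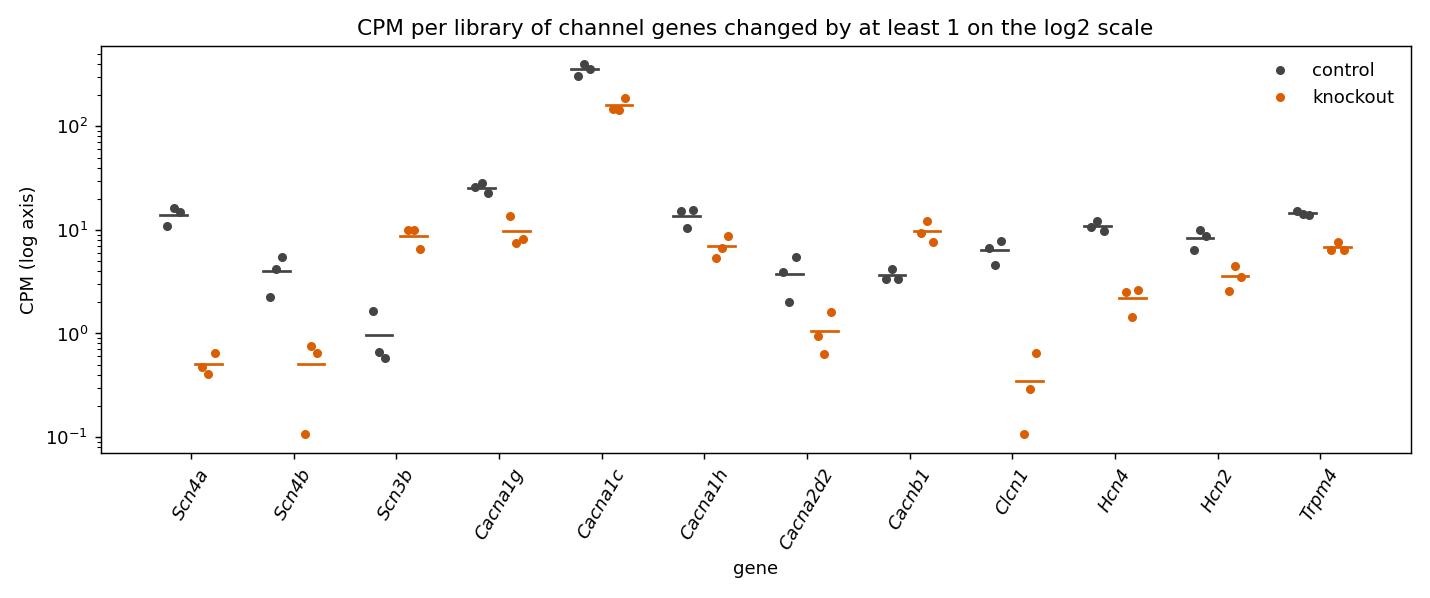
CPM in each library, on a log axis, of channel genes that were called, changed by at least 1 on the log2 scale and did not overlap between groups. Points are libraries (grey control, orange knockout) and lines are group means. Scn3b and Cacnb1 are higher in the knockouts and the other genes drawn are lower.

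Among the alpha2delta subunits, which carry the pore to the membrane, Cacna2d1 was at 209, 222 and 192 CPM in controls and 154, 129 and 118 CPM in knockouts. Its groups did not overlap and it fell by 0.64 (SE 0.13, adjusted p = 5.16e-03), but had 0.06 under library size alone (adjusted p = 0.811). Cacna2d2 was at 3.91, 2.0 and 5.46 CPM in controls and 0.955, 0.639 and 1.61 CPM in knockouts, a fall of 1.87 (SE 0.42, adjusted p = 6.69e-03). Cacna2d3 had 31 counts and was not tested.

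The intracellular beta subunits, which bind the pore's first linker, went in opposite directions. Cacnb2, the main beta subunit gene of heart muscle, was at 82.1, 70.3 and 72.7 CPM in controls and 34.6, 41.6 and 42.6 CPM in knockouts. It fell by 0.92 (SE 0.12, adjusted p = 4.41e-04), but was not called with library size alone (-0.24, adjusted p = 0.311). Cacnb1, the beta subunit of skeletal muscle, was at 3.39, 4.22 and 3.37 CPM in controls and 9.45, 12.1 and 7.57 CPM in knockouts. Each knockout lay above each control, and Cacnb1 rose by 1.42 (SE 0.22, adjusted p = 8.96e-04). Cacnb3 and Cacnb4 were not called, at 0.49 (adjusted p = 0.16), with groups that did not overlap, and -0.42 (adjusted p = 0.34). Cacnb2 took 77.7 ± 1.52% of beta subunit counts per kilobase in controls and 49.1 ± 6.50% in knockouts, and Cacnb1 took 11.2 ± 2.11% and 34.7 ± 5.30% (SD, n = 3 each). These shares too were chosen after their values were seen and were not tested. Of the 8 gamma subunit genes only Cacng7 reached 30 counts, at 1.28, 1.44 and 1.74 CPM in controls and 1.65, 1.28 and 1.13 CPM in knockouts (-0.10, adjusted p = 0.851). Cacng6, just outside the limit, had 22 counts in all and was not compared.

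Regulators of calcium channels were lower for 5 of 13 tested and higher for 0, with 8 not called and a median of -0.24, while 36.5% of all genes were called, 17.8% lower. Jph2, which ties the cell membrane to the sarcoplasmic reticulum, fell by 0.61 (SE 0.15, adjusted p = 0.0106), with 0.09 under library size alone. Stac3, an adaptor of the skeletal muscle channel, fell by 1.40 (SE 0.43, adjusted p = 0.0296), from 1.15 ± 0.0856 to 0.401 ± 0.238 CPM. Akap7, an anchor of protein kinase A, fell by 0.52 (SE 0.16, adjusted p = 0.0301), with 0.17 under library size alone.

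Among the chloride channel genes Clcn1 and Clcn2, both for channels of the cell surface, fell. The 5 genes for exchangers of endosomes and lysosomes (Clcn3 to Clcn7) were not called, and the difference between these kinds was not tested. Clcn1 (ENSMUSG00000029862.15, chromosome 6, 42286685 to 42315756, plus strand) was covered by 88, 41 and 68 reads in the controls and by 2, 5 and 8 in the knockouts. Its level was 6.62, 4.56 and 7.90 CPM in controls and 0.106, 0.290 and 0.644 CPM in knockouts. The ratio of mean CPM was 18.3, control over knockout, and the log2 fold change -4.29 (SE 0.43, adjusted p = 9.36e-05). Fam131b, on the other strand, overlaps 8.2% of its exon bases. Within a library Clcn1 took 5.96, 4.22 and 7.77% of Clcn counts per kilobase in controls and 0.102, 0.291 and 0.626% in knockouts (exact permutation p = 0.1, 0.167 after adjustment over the 5 shares).

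**Figure D3:**
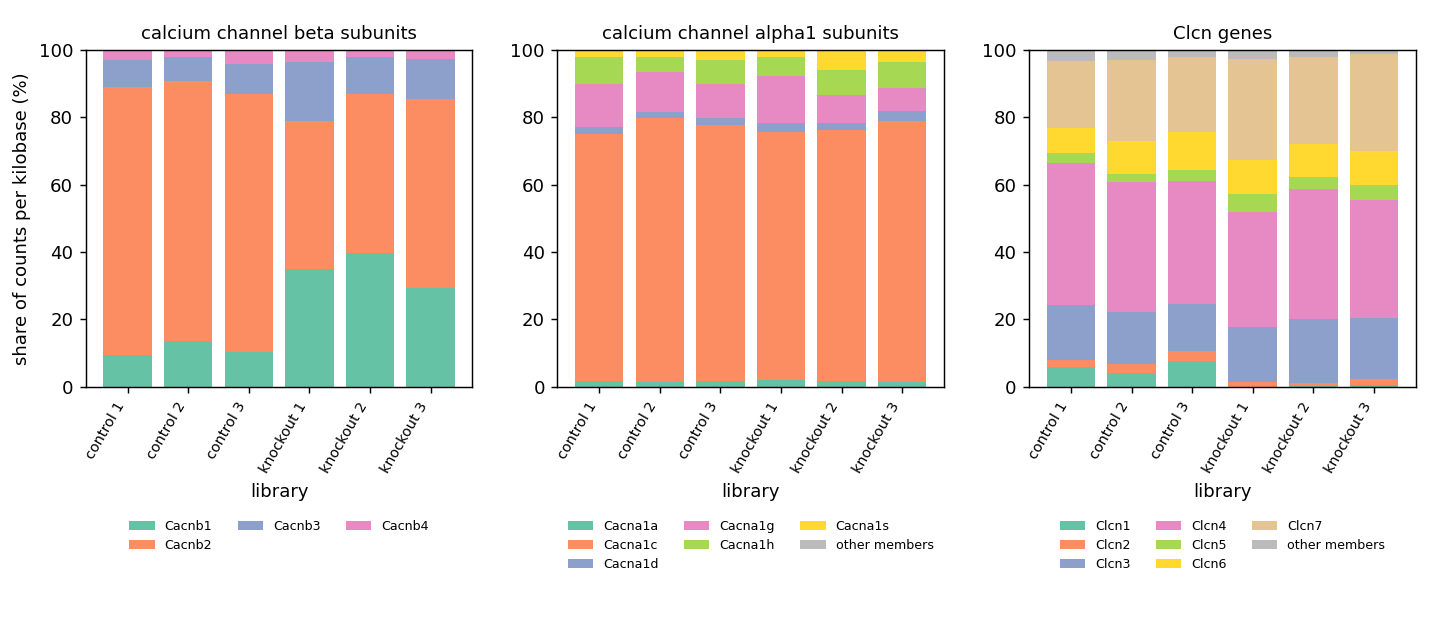
Share of each subfamily's counts per kilobase of exon taken by each member within a library, as stacked bars that sum to 100%, for the 3 control and 3 knockout libraries, with minor members joined as other members. As group means, Cacnb2 shrinks from 77.7 to 49.1% of the calcium channel beta subunits and Clcn1 from 5.98 to 0.340% of the Clcn genes, while Cacna1c is at 76.0 and 75.2% of the alpha1 subunits.

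Clcn2, a widely expressed surface channel, fell by 0.96 (SE 0.29, adjusted p = 0.0258), but was not called when control 1, control 2, control 3 or knockout 2 was left out (adjusted p = 0.0508, 0.076, 0.0845 and 0.0968). With library size alone it had -0.26 (adjusted p = 0.501). It was the only gene called here and not in the authors' deposited table, which gives an adjusted p of 0.0715. Clcn4, the most abundant Clcn gene per kilobase, was at 74.2, 65.7 and 58.8 CPM in controls and 56.2, 61.0 and 56.8 CPM in knockouts, with overlapping groups (-0.19, adjusted p = 0.23). Clcn3 and Clcn6 had values of 0.16 and 0.03. Clcn7, of lysosomes, had 0.29 (adjusted p = 0.0974). Clcn5, of endosomes, did not overlap between groups, with 6.92, 5.11 and 7.09 CPM in controls and 11.6, 7.26 and 10.2 CPM in knockouts. Its value of 0.60 (SE 0.21) lay just outside the threshold (adjusted p = 0.0500002). The block called it (0.60, adjusted p = 0.033), as did TMM without mitochondrial-encoded features and the fit without knockout 2 (adjusted p = 0.0489 and 0.0218). Of 18 other chloride channel and volume regulation genes tested, 5 were lower, 2 higher and 11 not called, a share of calls near the 36.5% of all genes. Clic5, a chloride intracellular channel protein, rose by 1.31 (SE 0.16, adjusted p = 2.90e-04), Clic1 rose by 0.75 (SE 0.16, adjusted p = 4.73e-03), and Ano10, of the anoctamin family, fell by 1.08 (SE 0.15, adjusted p = 5.58e-04).

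Both pacemaker channel genes described here, Hcn4 and Hcn2, fell. Hcn4, the main pacemaker gene of the sinoatrial node, was at 10.7, 12.3 and 9.87 CPM in controls and 2.49, 1.45 and 2.66 CPM in knockouts. The ratio of means was 4.98, control over knockout, the groups were far apart, and the log2 fold change was -2.32 (SE 0.23, adjusted p = 8.43e-05). Hcn2, a pacemaker channel gene also known from brain, was at 6.39, 9.89 and 8.71 CPM in controls and 2.60, 4.53 and 3.54 CPM in knockouts, a fall of 1.22 (SE 0.25, adjusted p = 4.17e-03), and library size alone gave -0.50 (adjusted p = 0.0867). Hcn3 had 10 counts in all. Within a library Hcn4 took 41.8, 36.3 and 32.5% of Hcn counts per kilobase in controls and 26.9, 12.9 and 24.2% in knockouts (exact permutation p = 0.1, 0.167 after adjustment over the 5 shares). Levels per kilobase in controls were 2.61 ± 0.557 for Hcn2 and 1.79 ± 0.205 for Hcn4, and in knockouts 1.11 ± 0.302 and 0.360 ± 0.107 (SD, n = 3 each).

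Markers of the conduction system and the atria were set beside the Hcn genes. Among all genes tested 36.5% were called, 18.7% higher and 17.8% lower. Conduction system markers were lower for 2 of 5 tested, Tbx3 by 1.15 and Smoc2 by 0.50. All 8 listed summed to 66.6 to 82.6 CPM in controls and 47.6 to 50.6 CPM in knockouts. Isl1, of the sinoatrial node, was at 0 in all libraries but control 1, where it was at 0.0752 CPM. Atrial markers differed between libraries of a group. Myl7, the atrial light chain, was at 245.4, 68.5 and 202.9 CPM in controls and 87.5, 65.4 and 132 CPM in knockouts. Of 8 atrial markers, 1, Nppa, was higher and 1, Nr2f2, lower, and the median log2 fold change of the 8 was -0.58. Their sum, mostly Nppa, was 379 to 1553 CPM in controls and 3410 to 4880 CPM in knockouts. The part of these tissues in the Hcn values was not tested.

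Of 9 genes for proteins that make, degrade or bind cyclic nucleotides or partner Hcn channels, 4 were lower, 1 higher and 4 not called, against 17.8% lower and 18.7% higher of all genes. Bves and Popdc3 encode membrane proteins that bind cyclic AMP. Bves fell by 0.77 (SE 0.12, adjusted p = 8.18e-04) and Popdc3 rose by 1.03 (SE 0.20, adjusted p = 3.47e-03). Adcy6, an adenylyl cyclase of heart muscle, fell by 0.63 (SE 0.13, adjusted p = 5.45e-03), with 0.06 under library size alone.

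Among the TRP channel genes Trpm4 fell and Trpm7 was not called. Trpm4, a calcium-activated channel for monovalent cations, was at 15.3, 14.2 and 14.1 CPM in controls and 6.37, 7.61 and 6.44 CPM in knockouts. The libraries of each group lay close together, and Trpm4 fell by 1.10 (SE 0.14, adjusted p = 3.79e-04). With library size alone Trpm4 was not called (-0.41, adjusted p = 0.111). Trpm7, a channel fused to a kinase and the most abundant TRP gene per kilobase, was at 90.6, 94.9 and 84.7 CPM in controls and 80.0, 98.2 and 105 CPM in knockouts. Its groups overlapped (0.07, SE 0.13, adjusted p = 0.714). Trpc1 had 0.26 (adjusted p = 0.188) with groups that did not overlap. Trpv4, opened by swelling and warmth, and Trpv2 did not overlap either, both lower in the knockouts with TMM. Among all genes tested the groups did not overlap for 50.6%. Neither Trpv4 nor Trpv2 was called with all libraries, and library size alone gave 0.10 and 0.33. Trpv4 had -0.62 (adjusted p = 0.09) and was called without control 1 (-0.84, adjusted p = 0.0312). Trpv2, Trpm2 and Trpm3 had -0.36, 0.02 and -0.34. Trpc6 and Trpm6 did not pass the filter, at 0.591 ± 0.147 and 0.673 ± 0.417 CPM in controls and 0.636 ± 0.344 and 0.716 ± 0.300 CPM in knockouts. Trpc4ap had -0.10 (adjusted p = 0.59). Just outside the limit of 30 counts, Trpv3 had 22. Of 14 relatives and store-operated calcium entry genes tested, 5 were lower, 2 higher and 7 not called, against 17.8% lower and 18.7% higher of all genes. Fkbp4 and Pkd2l2 fell by 0.95 (SE 0.16, adjusted p = 1.50e-03) and 1.61 (SE 0.30, adjusted p = 2.62e-03), and the scaffold gene Homer2 fell by 0.62 (SE 0.13, adjusted p = 5.29e-03), with 0.09 under library size alone. Of the lower partner genes named here and above, Ank2, Fgf14 and Pkd2l2 were also called with library size alone (adjusted p = 0.0473, 0.038 and 0.0132), whereas Stac3, Ano10, Bves and Fkbp4 were not (adjusted p = 0.19, 0.121, 0.729 and 0.286).

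The remaining genes had too few reads for a comparison. Reads below the limit were found, among others, for Scn1a, Scn8a, Scn9a, Scn11a, Cacna1b, Cacna1i, Cacng1, Cacng4, Cacng5, Cacng6, Hcn3, Trpa1, Trpc4, Trpc5os, Trpm1, Trpm8, Trpv1, Trpv3 and Trpv5. No read was found for Cacna1f, Cacna2d4, Cacng2, Cacng3, Cacng8, Trpc2, Trpc5, Trpc7, Trpm5 and Trpv6.

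Genes that mark the other cell types of the heart were measured as well. Counts of calls below stand beside 36.5% called among all genes tested, 18.7% higher and 17.8% lower. Cardiomyocyte markers were lower for 4 of 10 and higher for 0, and their sum was 94853 to 97087 CPM in controls and 64978 to 65961 CPM in knockouts. Of 5 tested markers of neurons and Schwann cells 1 was lower, Dbh by 3.47. All 12 listed summed to 14.4 to 17.8 CPM in controls and 11.5 to 16.7 CPM in knockouts, with Chat at 0. Endothelial markers were lower for 4 of 8 and higher for 0 (794 to 876 CPM and 596 to 629 CPM), and smooth muscle and pericyte markers lower for 2 and higher for 2 of 8 (841 to 1072 CPM and 565 to 685 CPM). Fibroblast and macrophage markers were called in 0 of 7 and 1 of 7, summing to 573 to 849 CPM and 122 to 135 CPM in controls and to 745 to 1239 CPM and 126 to 155 CPM in knockouts. The part of these cell types in the channel gene values was not tested.

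**Figure D4:**
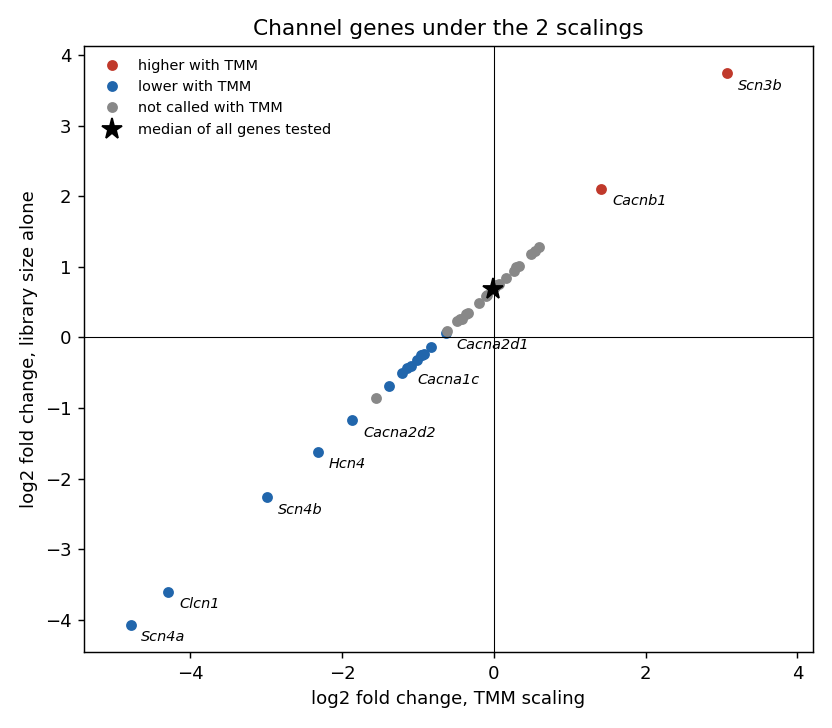
Log2 fold change of the channel genes described, and of Trpc4ap, with TMM scaling (x axis) and with library size alone (y axis). Colours give the call with TMM, and a star marks the median of all genes tested (-0.01 and 0.68). Scn4a, Clcn1, Scn4b, Hcn4 and Cacna2d2 are below 0 and Scn3b and Cacnb1 above 0 on both axes, whereas Cacna2d1 is at -0.64 and 0.06.

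The calls of Scn4a, Clcn1, Scn4b, Hcn4, Cacna1g and Cacna2d2 among the lower genes and of Scn3b and Cacnb1 among the higher genes were kept under every alternative setting that tested the gene. Over these settings Scn4a ranged from -4.95 to -4.07, Clcn1 from -4.96 to -3.61 and Scn3b from 2.85 to 3.81.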

How the data were processed

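RNA-seq libraries of 3 control and 3 knockout hearts were used. Controls 1 to 3 held 14276410, 12553384 and 12057962 counts, and knockouts 1 to 3 held 14461110, 13641345 and 9850100. The submitters' processing notes name featureCounts 1.5.1, HISAT2 2.0.5, DESeq2 1.16.1, SAMtools 1.5 and the mm10 build. Whether strand was used in counting is not stated there, and reads of genes that overlap may be mixed. The authors deposited whole-number counts per gene, 1 column per mouse although each mouse was sequenced in technical replicates per the series design, and a table of log2 fold changes with p-values, which was used only as an alternative. The deposited normalised values were not used.

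All 51888 rows were joined. The main test was edgeR's quasi-likelihood test (edgeR 4.0.16, R 4.3.3) with TMM, filterByExpr (minimum count 10), no block and Benjamini-Hochberg adjustment over all genes tested. The SE is the log2 fold change over the square root of F. Levels per kilobase use exon lengths merged over transcripts of GENCODE M21 (GRCm38), which held all 77 genes. The test was tried on simulated counts. Shares were compared with exact permutation tests in scipy 1.17.1. Promoters are from RefSeq, GRCm38.p6.

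Members, partner lists and marker lists were chosen with earlier results of these data known. Every gene with at least 30 counts was named, except some that are not reported here and enter only counts over all genes. Per-library CPM was given for called genes that changed by at least 1 on the log2 scale without overlap and for the most abundant gene described of each family. From each partner list up to 3 called genes with the smallest adjusted p were named, and other genes were chosen after their values were seen. Other settings tried were library size alone, RLE scaling, TMM with mitochondrial-encoded features left out, no filter, 50 counts in 3 libraries, DESeq2 1.42.0, limma-voom (limma 3.58.1), each library left out, the replicate number as a block and the deposited table. Libraries of a group differed by more than sampling noise (chi-square per degree of freedom at least 8.93).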

Additional observations from a re-analysis of the deposited data

How the results depend on the processing

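The calls reported were 3 higher and 18 lower, over genes of the name rule with Trpc4ap. Across 15 alternative settings they were 3 to 4 higher and 13 to 19 lower apart from 2 settings. With library size alone there were 14 higher and 6 lower calls, and no filter gave 5 higher and 19 lower over 47 genes tested. With each library left out in turn, 3 to 4 were higher and 14 to 18 lower. With library size alone 10 of the values described changed sign, 9 of them of genes not called with TMM. They were Cacna2d1 (0.062), Clcn4 (0.49), Trpc4ap (0.61), Trpm3 (0.35), Trpv2 (0.33), Trpv4 (0.10), Cacna1s (0.23), Cacnb4 (0.26), Cacng7 (0.59) and Scn3a (0.26). With this scaling the median of all genes was 0.68, against -0.01 with TMM. The replicate number as a block (replicate block) gave 4 higher and 18 lower, and called Clcn5 and Scn10a (adjusted p = 0.033 and 0.0476). Nothing in the labels says that the numbers pair the mice, and the correlations between deviations of libraries with the same number were -0.198, 0.085 and -0.087. All 5 shares kept their direction without division by length. With 1 library left out, the share of Cacna1h moved between -0.493 points, without control 2, and 1.17 points, without control 1, and the other 4 kept their sign. Genes near 30 counts limit what can be seen, and the 20 genes with fewer reads were not compared. No setting separates cre from the loss of Elac2.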
